A study of Mus musculus with 6 samples.

Results

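The sterol and fatty acid synthesis genes examined here are 37 genes chosen by name, among 78409 genes in the expression table. They comprise 18 enzymes of sterol synthesis, 5 regulators of the pathway, 5 genes of sterol transport and efflux, and 9 enzymes of fatty acid synthesis. Each name was found once or was taken as the entry of highest total count. After a filter on low counts, 36 of them were among the 14834 genes tested. Abcg1, an exporter of cholesterol, did not pass the filter.

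Cells make cholesterol from acetyl-CoA through mevalonate, farnesyl diphosphate, squalene and lanosterol, and make fatty acids from the same acetyl-CoA through malonyl-CoA. Transcription of both sets of enzymes is driven by the SREBP factors, encoded by Srebf1 and Srebf2, which are held in the endoplasmic reticulum by SCAP and the INSIG proteins when sterols are plentiful. Excess sterol is sensed by the liver X receptors, which raise the exporters ABCA1 and ABCG1, so that the synthesis and efflux genes are often read side by side. In growing fetal tissue, sterols and fatty acids supply new membrane.

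The data were bulk RNA-seq profiles of cultured nephrogenic stroma, the mesenchyme that surrounds nephron progenitors in the outer cortex of the fetal kidney. Cells came from wild-type CD1 mouse kidneys at embryonic day 18, pooled by litter, and were sorted with an antibody to PDGFRa. Each of 3 litters gave 1 library from cells on a low adhesion substrate and 1 from cells on a high adhesion substrate. The comparison asks which transcripts depend on how much fibronectin, an adhesive matrix protein, coats the substrate. In the low adhesion group the silicone (PDMS) coat on glass coverslips had been incubated with bovine fibronectin at 500 ng/mL in DPBS, and in the high adhesion group at 50000 ng/mL. Both groups were grown for 18 h in DMEM with fetal bovine serum and antibiotics, and polyadenylated RNA was sequenced. The serum in both arms is itself a source of lipoproteins. No group carried a transgene or mutation. There was no arm without fibronectin and no freshly sorted arm.

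Library totals ran from 12596249 to 13508257 counts, so that 1 count was worth 0.0740 to 0.0794 CPM, the unit that scales each library's counts to a common total. With litter as a block, 1416 of 14834 genes were called between the substrates at an edgeR adjusted p below 0.05, of which 699 were higher and 717 lower at high adhesion. Markers of nephrogenic stroma were present in every library, but 7 of 8 were lower at high adhesion, with a summed level of 2419 to 2674 CPM on the low and 2056 to 2155 CPM on the high substrate. In the ureteric epithelium list 3 of 8 tested markers rose, the keratin genes Krt19, Krt18 and Krt8, and Gata3 fell. The sum of this list was 343 to 636 CPM at low and 501 to 933 CPM at high adhesion. Most of it was Krt18, at 200 to 491 CPM on the low and 328 to 735 CPM on the high substrate. Epcam, Cdh1, Wnt11 and Calb1 were not called, Ret was under 1 CPM and not tested, and Wnt9b was at 0 in each library. Of the other marker lists, nephron progenitor had 1 gene higher of 6 tested, nephron epithelium 2 higher and 1 lower of 6, podocyte 1 higher of 3, endothelium 1 lower of 5, and erythroid none of 3. The macrophage list had 1 of 7 higher and the adipocyte list 1 of 3 lower, with the adipocyte-defining Adipoq and Plin1 under 1 CPM in every library. The part of these marker differences in the results below was not tested. In bulk RNA, fewer cells of a type and less RNA per cell cannot be told apart.

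Of the 36 tested genes, 13 were higher at high adhesion, 1 was lower and 22 were not called (edgeR with the litter block). Over all tested genes 4.71% were called higher and 4.83% lower. The 13 that rose were Hmgcs1, Mvk, Idi1, Fdps, Fdft1, Sqle, Lss, Msmo1, Nsdhl, Insig1, Acly, Fasn and Elovl6, and the gene that fell was Npc2. The changes were small. Called members differed by 1.11-fold to 1.30-fold, with a median of 1.18-fold, beside a median of 1.25-fold over all called genes. The fitted log2 fold change was positive for 29 members and negative for 7, with a median of 0.090, beside a median of -0.0012 over all tested genes.

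The same counts were made without any model. In 17 members the high adhesion library exceeded the low one in 3 of 3 litters, against 21.1% of all tested genes, and in 1 member it was lower in 3 of 3, against 20.2%. The 3 high values lay wholly above the 3 low values in 7 members, namely Hmgcs1, Mvk, Sqle, Lss, Sc5d, Acly and Fasn, against 7.82% of all tested genes. No member lay wholly below, against 7.6%. The 37 genes together held 0.215%, 0.239% and 0.235% of all counts in litters 1, 2 and 3 at low adhesion, and 0.231%, 0.263% and 0.261% at high adhesion. Their share was therefore higher on the high substrate in each litter, while the groups overlapped because litter 1 was low in both.

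**Figure D1:**
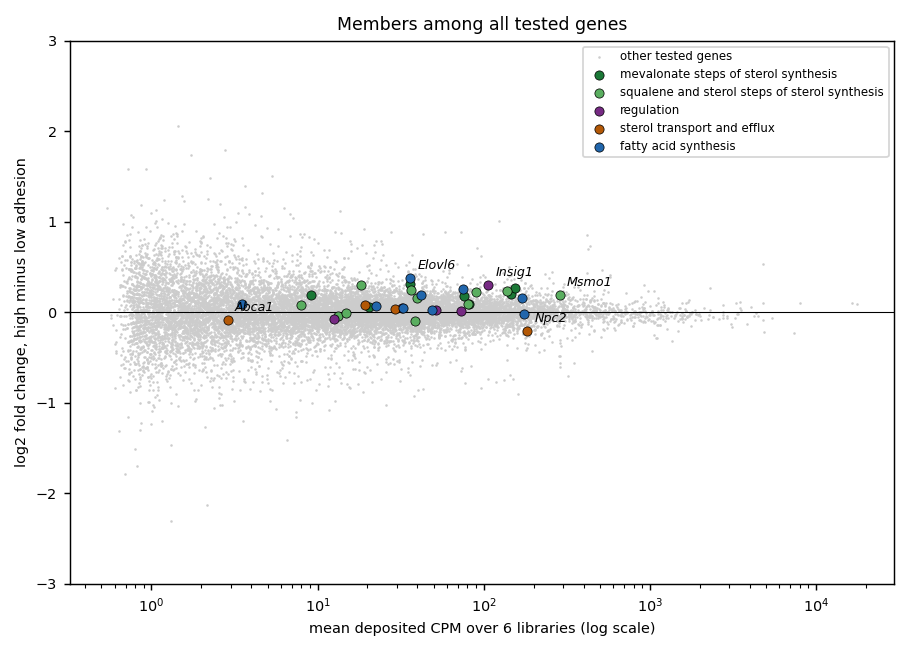
Log2 fold change of high over low adhesion (vertical axis) against mean deposited CPM over 6 libraries (horizontal axis, log scale) for the tested genes, with the 36 tested members coloured by role. The members sit between -0.20 and 0.38 on the log2 scale, mostly just above 0, with Elovl6 the highest and Npc2 the lowest of them.

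The calls depended on treating the litters as pairs. Without the replicate block, edgeR called 0 members in either direction, where 0.135% of all tested genes were called higher and 0.108% lower. In that fit 11 of 36 members had an unadjusted p below 0.05, against 9.16% of all tested genes, and the lowest edgeR adjusted p of a member was 0.189, that of Sqle. DESeq2 with the block called 6 members higher (1.39% of all tested genes) and 1 lower (1.35%). Leaving out litter 3 left 7 members higher (2.84% of all genes tested in that fit) and 0 lower (3.21%). Fdps, Sqle, Insig1, Acly and Elovl6 passed in each of the 9 alternatives that kept the block, and lost their call only without it.

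**Figure D2:**
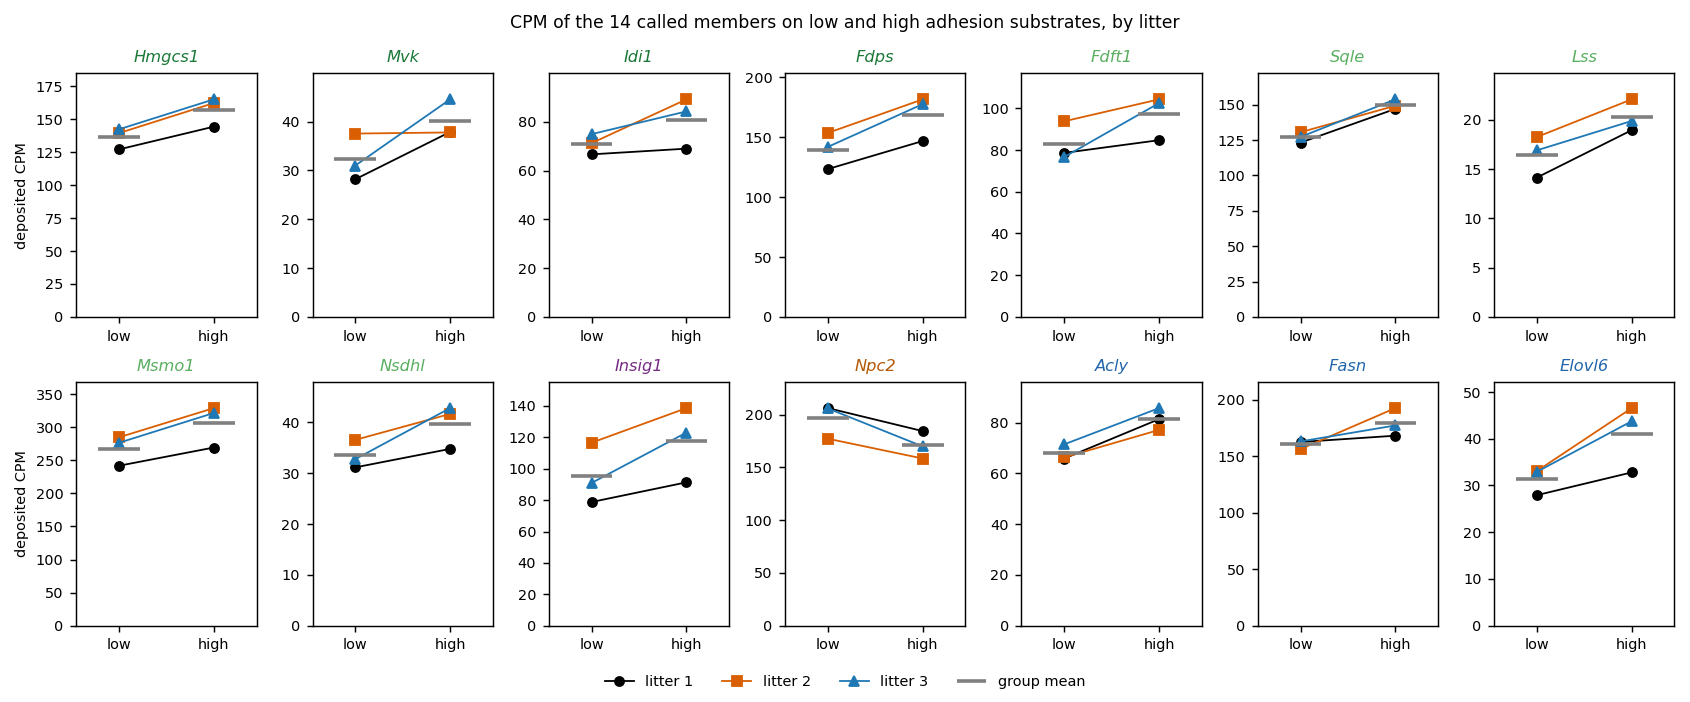
Deposited CPM (vertical axes, from 0) of the 14 called genes on the low and the high substrate, with 1 line per litter and grey bars for the group means of 3 libraries; gene names are coloured by role. In 13 panels each line goes up, in that of Npc2 each line goes down, and litter 1 is the lowest line in panels such as Fdps, Msmo1 and Insig1.

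The enzymes that lead from acetyl-CoA to farnesyl diphosphate included 4 of 7 that rose and none that fell, with a median log2 fold change of 0.19. Over all tested genes 4.71% were called higher and 4.83% lower. Fdps (ENSMUSG00000059743), farnesyl diphosphate synthase, stands where the sterol and the other isoprenoid branches part. Its level was 123, 154 and 142 CPM at low adhesion in litters 1, 2 and 3, and 147, 182 and 178 CPM at high adhesion. Each litter rose by a like amount, but the groups overlapped because litter 1 at high adhesion lay under litter 2 at low adhesion. The log2 fold change was 0.27 ± 0.044 (± is the SE of the edgeR fit to 3 pairs, edgeR adjusted p = 0.000119). Its counts were fractional in 6 of 6 libraries, and 26.7% of its exonic bases in the GENCODE M21 annotation overlap Gm43738 on the same strand, so its level is uncertain.

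Hmgcs1 (ENSMUSG00000093930) encodes the cytosolic synthase that makes HMG-CoA, the substrate of the rate-limiting reductase. It stood at 127, 139.5 and 142 CPM on the low and at 144, 162 and 165 CPM on the high substrate. The 3 high values all exceeded the 3 low ones, by 1.15-fold in the fit (log2 fold change 0.20 ± 0.044, edgeR adjusted p = 0.00285). DESeq2 did not call it, at an adjusted p of 0.0509. An antisense gene, Gm48342, covers 12.1% of its exonic bases, and 4 of 6 libraries held fractional counts.

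Mvk (ENSMUSG00000041939), mevalonate kinase, measured 28.2, 37.6 and 31.0 CPM at low and 37.9, 37.8 and 44.6 CPM at high adhesion. The groups did not overlap, yet litter 2 hardly moved, so that the rise came from litters 1 and 3. Its log2 fold change was 0.31 ± 0.078 (edgeR adjusted p = 0.00983), and the call was lost in DESeq2 and without litter 1 or litter 3 (adjusted p = 0.168, 0.0722 and 0.184). Idi1 (ENSMUSG00000058258), the isomerase that makes dimethylallyl diphosphate, was at 66.7, 71.3 and 75.0 CPM and rose to 69.0, 89.3 and 84.3 CPM. Litter 1 differed least and the groups overlapped. The fit gave 0.18 ± 0.058 on the log2 scale (edgeR adjusted p = 0.0468), a call near the threshold that DESeq2 and the fits without litter 2 or litter 3 did not make (adjusted p = 0.416, 0.358 and 0.126). Idi1 held fractional counts in 5 of 6 libraries.

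The other mevalonate enzymes were not called. Acat2, the cytosolic thiolase of the first step, ran from 68.7 to 96.2 CPM over the 6 libraries, with a log2 fold change of 0.09 (95% interval -0.018 to 0.196). Pmvk, phosphomevalonate kinase, ran from 19.2 to 22.3 CPM with 0.06 (-0.099 to 0.223). Mvd, the decarboxylase that follows it, ran from 6.99 to 11.03 CPM with 0.19 (-0.037 to 0.412). The Mvd estimate was as large as that of Idi1, with a wider interval.

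Promoter sequences were searched because the SREBP factors bind a sterol regulatory element beside CCAAT and GC boxes in many of these genes. The RefSeq promoter table (GRCm38.p6, 250 bases before to 50 after each start) held 28 of the 37 genes with 36 promoters, and 32851 promoters in all. The letters TCACNCCAC, a core of the sterol regulatory element, were found on either strand in 1 of the 36 member promoters, against 1.24% of all promoters. CCAAT on either strand was found in 23 of the 36, against 37.4% of all, and GGGCGG on either strand in 28 of the 36, against 35.7% of all. Counted by gene, CCAAT was present for 9 of the 10 matched genes that rose and for 12 of the 17 matched genes that were not called. GGGCGG was present for 8 of the 10 and 15 of the 17, and TCACNCCAC for 1 of the 10 and 0 of the 17. The shares over all promoters are per promoter and not per gene, and a relation between motifs and calls was not tested. No match of one motif overlapped another in the member promoters. A match is a string of letters and not a measured binding site, and these windows miss elements that lie elsewhere.

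The Hmgcs1 promoter is shown as the member window that holds the sterol regulatory element core, TCACCCCAC, which begins 137 bases before the start, and the Mvk promoter as the one with the most CCAAT matches, 5. They lie at chr13:119690101-119690400 (plus strand) and chr5:114444019-114444318 (plus strand). Capitals mark the TCACNCCAC and CCAAT matches, with ATTGG being CCAAT on the other strand.
Hmgcs1: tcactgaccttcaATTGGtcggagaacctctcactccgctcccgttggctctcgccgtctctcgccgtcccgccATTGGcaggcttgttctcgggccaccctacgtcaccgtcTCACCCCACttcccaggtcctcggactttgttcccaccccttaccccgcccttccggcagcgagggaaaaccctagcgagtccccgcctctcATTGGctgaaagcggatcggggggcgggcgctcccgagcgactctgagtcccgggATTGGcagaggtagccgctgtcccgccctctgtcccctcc
Mvk: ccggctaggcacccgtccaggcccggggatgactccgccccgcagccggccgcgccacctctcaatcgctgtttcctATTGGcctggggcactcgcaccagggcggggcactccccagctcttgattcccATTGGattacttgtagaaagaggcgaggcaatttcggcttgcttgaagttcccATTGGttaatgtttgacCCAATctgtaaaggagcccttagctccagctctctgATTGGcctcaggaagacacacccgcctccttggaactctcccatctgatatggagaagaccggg
The Hmgcs1 window has 4 CCAAT matches in addition to the sterol element core.

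From farnesyl diphosphate through squalene to cholesterol, 5 of 11 enzymes rose and none fell, beside 4.71% and 4.83% of all tested genes. Their median log2 fold change was 0.16. Sqle (ENSMUSG00000022351), squalene epoxidase, catalyses the first oxygenation and is a further control point of the pathway. It was at 123, 131 and 127 CPM at low adhesion and at 147, 149 and 154 CPM at high adhesion. The litters differed little and the groups lay well apart. The log2 fold change was 0.24 ± 0.045 (edgeR adjusted p = 0.000629).

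Msmo1 (ENSMUSG00000031604), the methylsterol monooxygenase that begins removal of the C4 methyl groups, was the most abundant of the 37 genes by CPM. It rose from 242, 285 and 277 CPM to 269, 329 and 322 CPM. Litters 2 and 3 moved together above litter 1 on both substrates, so the groups overlapped while each pair went up. The fit gave a log2 fold change of 0.19 ± 0.041 (edgeR adjusted p = 0.00218), and without litter 3 the adjusted p was 0.0619. The Msmo1 promoter, at chr8:64733529-64733828 (minus strand), is shown because this gene had the highest level and its window holds 3 CCAAT matches (capitals).
Msmo1: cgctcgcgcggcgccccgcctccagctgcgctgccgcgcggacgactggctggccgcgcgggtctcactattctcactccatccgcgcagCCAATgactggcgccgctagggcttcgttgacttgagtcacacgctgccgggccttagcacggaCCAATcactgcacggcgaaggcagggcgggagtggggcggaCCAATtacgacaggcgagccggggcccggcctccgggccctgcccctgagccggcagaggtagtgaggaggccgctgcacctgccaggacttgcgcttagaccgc
It holds no TCACNCCAC.

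Fdft1 (ENSMUSG00000021273) encodes squalene synthase, which commits farnesyl diphosphate to sterols. Its level was 78.6, 93.8 and 76.7 CPM at low and 84.7, 104 and 103 CPM at high adhesion, so that litter 3 moved most and the groups overlapped. The log2 fold change was 0.23 ± 0.057 (edgeR adjusted p = 0.0105), without litter 3 it was 0.13 (adjusted p = 0.358), and DESeq2 gave an adjusted p of 0.148. The oppositely transcribed Ctsb covers 18.3% of its exonic bases. As the strand setting of the counting was not given, reads of both cannot be told apart there.

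Lss (ENSMUSG00000033105), lanosterol synthase, closes the sterol rings. It was measured at 14.1, 18.2 and 16.9 CPM on the low and 18.9, 22.1 and 19.9 CPM on the high substrate. The high values all exceeded the low ones, litter 1 differing most, and the log2 fold change was 0.30 ± 0.082 (edgeR adjusted p = 0.0156). That call was absent in DESeq2 and without litter 1 (adjusted p = 0.407 and 0.119). Nsdhl, the C4 decarboxylating dehydrogenase that acts after Msmo1, ran from 31.2 to 36.6 CPM at low and 34.8 to 42.8 CPM at high adhesion, and rose in 3 of 3 litters (0.24 ± 0.066, edgeR adjusted p = 0.0172). DESeq2 and the fit without litter 3 did not call it (adjusted p = 0.344 and 0.316).

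The remaining sterol enzymes were not called. Sc5d, the sterol C5 desaturase, was at 37.5, 37.7 and 36.7 CPM and at 40.2, 42.8 and 42.2 CPM, so that its groups did not overlap, but its log2 fold change of 0.16 had an edgeR adjusted p of 0.119. Cyp51, which removes the methyl group at C14 of lanosterol, had 0.09 (95% interval -0.021 to 0.203), and Tm7sf2, a sterol reductase, 0.08 (-0.154 to 0.322). The estimates were below 0 for Hsd17b7 at -0.09 (-0.243 to 0.055), a ketosteroid reductase of the C4 demethylation, for Ebp at -0.05 (-0.240 to 0.144), the sterol isomerase, and for Dhcr7 at -0.01 (-0.188 to 0.177), the last reductase before cholesterol. Whether early and late enzymes differ in their response was not tested.

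**Figure D3:**
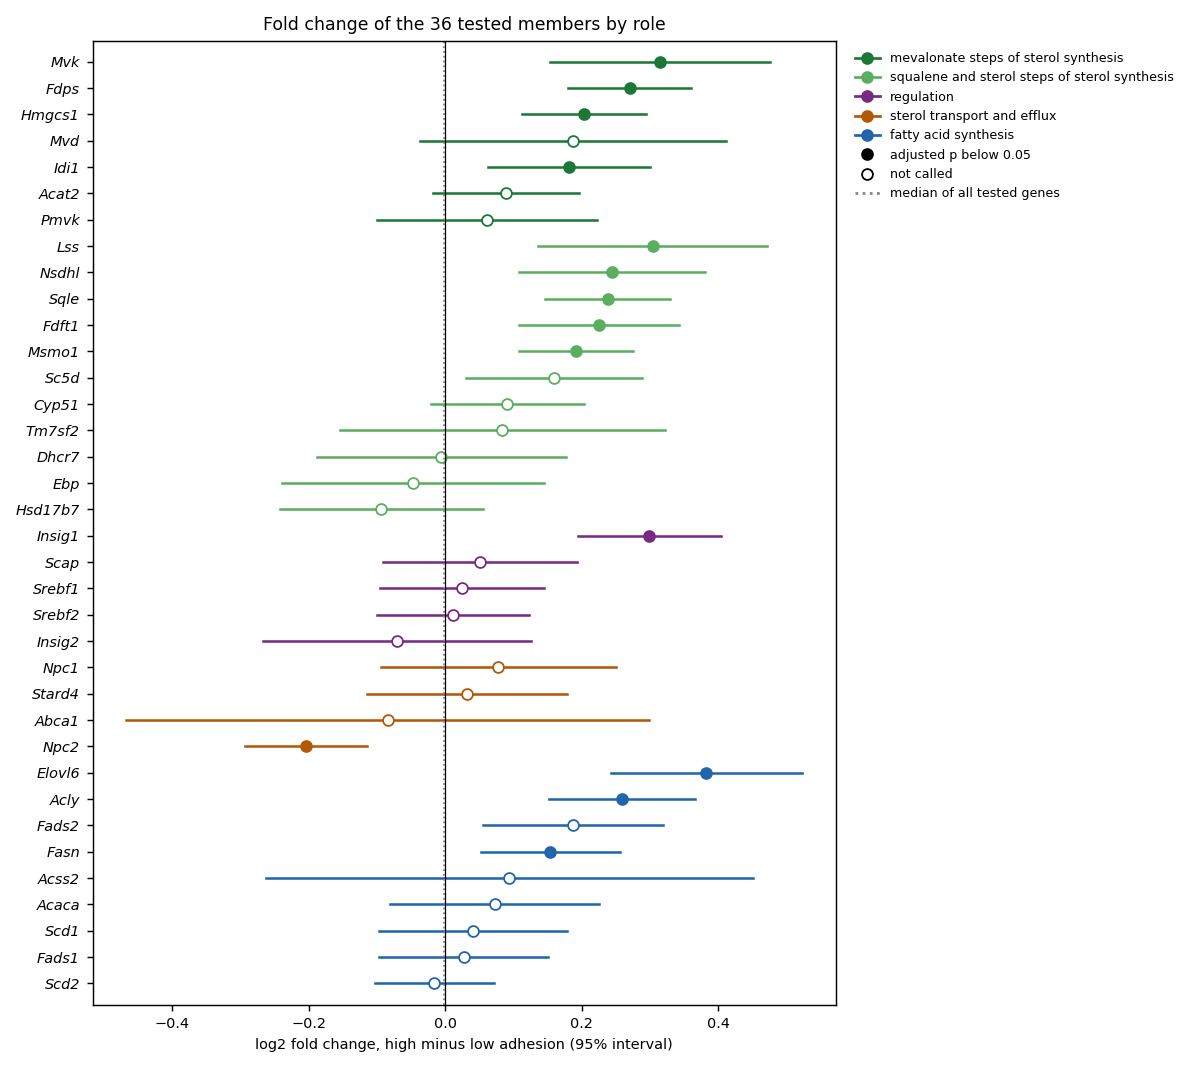
Log2 fold change of high over low adhesion (horizontal axis) with its 95% interval for the 36 tested genes, ordered within each role; filled points were called by edgeR and open points were not. The filled points lie between 0.15 and 0.38 on the right and at -0.20 for Npc2 on the left, and the widest intervals belong to the low-level genes Abca1 and Acss2.

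Among the 5 regulators, Insig1 rose and the other 4 were not called, beside 4.71% of all tested genes called higher. The median log2 fold change was 0.025 for the group. Insig1 (ENSMUSG00000045294) encodes the endoplasmic reticulum protein that retains SCAP and SREBP, and is itself an SREBP target. It was at 78.8, 117 and 91.0 CPM at low and at 91.4, 139 and 123 CPM at high adhesion. Each litter went up, and the litters differed among themselves on both substrates, so the groups overlapped widely. The log2 fold change was 0.30 ± 0.051 (edgeR adjusted p = 0.000215), and without the replicate block the adjusted p was 0.724.

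Insig2 (ENSMUSG00000003721), the second INSIG gene, was at 12.3, 12.7 and 13.4 CPM at low and 12.0, 12.7 and 11.9 CPM at high adhesion. Its level showed no common direction over litters, with a log2 fold change of -0.07 (95% interval -0.267 to 0.126). Per kilobase of exon in GENCODE M21, Insig1 was at 34.5 and Insig2 at 3.60 mean CPM per kb over the 6 libraries, a scale that assumes even coverage along transcripts. Whether Insig1 and Insig2 differ in their response was not tested.

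Srebf1 (ENSMUSG00000020538), which encodes SREBP-1, the form tied mainly to fatty acid genes, was at 47.0, 52.4 and 54.7 CPM and at 50.7, 52.3 and 54.0 CPM (log2 fold change 0.02, 95% interval -0.095 to 0.145). For Srebf2 (ENSMUSG00000022463), whose product acts mainly on sterol genes, the levels were 68.7, 77.0 and 72.6 CPM and 74.4, 71.8 and 74.1 CPM (0.01, -0.100 to 0.124). Their high and low values were interleaved, and the interval of each excludes a change as large as the 0.30 fitted for Insig1. These are transcript levels and do not report cleavage of the SREBP proteins. Scap (ENSMUSG00000032485), the sterol-sensing escort of the SREBPs, was at 32.8, 24.9 and 37.3 CPM and at 37.1, 26.3 and 35.2 CPM, lowest in litter 2 on both substrates (0.05, -0.091 to 0.193). An antisense gene covers 13.2% of its exonic bases.

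The transport and efflux genes had the only member that fell. Npc2 (ENSMUSG00000021242), the soluble lysosomal protein that passes cholesterol to NPC1, went from 206, 177 and 206 CPM to 184, 158 and 169.7 CPM. It was lower at high adhesion in each litter, litter 2 being lowest on both substrates, and the groups overlapped. Its log2 fold change was -0.20 ± 0.044 (edgeR adjusted p = 0.00242), and without litter 3 the adjusted p was 0.122. Its partner Npc1, the membrane protein of the same step, ran from 18.1 to 21.8 CPM over the 6 libraries and was not called (0.08, 95% interval -0.094 to 0.250). Stard4, a cytosolic sterol carrier, ran from 25.5 to 33.2 CPM (0.03, -0.114 to 0.178).

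The exporters that liver X receptors induce were scarce. Abca1 (ENSMUSG00000015243), which loads cholesterol onto apolipoproteins, was at 3.50, 2.12 and 3.24 CPM at low and 3.99, 2.06 and 2.37 CPM at high adhesion. It went up in litter 1 and down in the others, with a log2 fold change of -0.08 whose 95% interval, -0.467 to 0.299, is too wide to exclude a change of the size seen in the enzymes. Abcg1 (ENSMUSG00000024030) had 19, 8 and 5 counts at low and 27, 6 and 10 counts at high adhesion, and was not tested. Both exporters were highest in litter 1, where the summed macrophage markers were also highest, at 52.6 and 59.5 CPM on the low and high substrate against 25.2 to 29.3 CPM in the other libraries. The summed ureteric epithelium, nephron progenitor, podocyte and adipocyte markers were likewise highest in litter 1 on both substrates. The part of RNA from any of these cell types in the exporter levels was not tested. The median log2 fold change of the 4 tested transport genes was -0.026. It was 0.032 over the same 4 genes without litter 3, and 0.10 in that fit with Abcg1, which then passed the filter. With every litter kept it was 0.032 at a minimum of 5 mean CPM, which left out Abca1, and 0.026 with no filter, which added Abcg1. Over the same 4 genes with no filter it was -0.032. The sign thus varied with the genes and litters included, so no direction is given for these genes as a group.

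In fatty acid synthesis 3 of 9 enzymes rose and none fell, beside 4.71% and 4.83% of all tested genes. The median log2 fold change of the 9 was 0.094. Elovl6 (ENSMUSG00000041220), which elongates palmitate toward stearate, had the highest fold change of the 36 genes. It was at 27.9, 33.1 and 32.9 CPM at low and at 32.8, 46.6 and 43.8 CPM at high adhesion. Litters 2 and 3 moved most, and litter 1 at high adhesion only reached the low adhesion level of the others, so the groups overlapped. The log2 fold change was 0.38 ± 0.068 (edgeR adjusted p = 0.000341). Its promoter, at chr3:129532136-129532435 (plus strand), is shown because it holds none of the 3 motifs although the gene rose most.
Elovl6: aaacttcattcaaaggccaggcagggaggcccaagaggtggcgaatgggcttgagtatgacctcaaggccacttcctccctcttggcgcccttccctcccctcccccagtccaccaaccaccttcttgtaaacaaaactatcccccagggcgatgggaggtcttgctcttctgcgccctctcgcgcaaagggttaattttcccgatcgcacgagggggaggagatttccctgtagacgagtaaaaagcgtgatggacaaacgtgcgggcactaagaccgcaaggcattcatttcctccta
It is printed without capitals for that reason.

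Acly (ENSMUSG00000020917), ATP citrate lyase, supplies cytosolic acetyl-CoA to both pathways. It was at 65.9, 66.3 and 71.5 CPM on the low and at 81.4, 77.2 and 85.8 CPM on the high substrate. The groups were well separated and the 3 litters moved alike (log2 fold change 0.26 ± 0.052, edgeR adjusted p = 0.00132). Fasn (ENSMUSG00000025153), fatty acid synthase, was at 163, 156 and 163 CPM and at 168, 193 and 177 CPM. Its groups did not overlap, but litter 2 moved most and litter 1 little. The log2 fold change of 0.15 ± 0.049 sat at the threshold (edgeR adjusted p = 0.0485), and the call was lost in DESeq2, in limma-voom and without litter 2 or litter 3 (adjusted p = 0.346, 0.0518, 0.416 and 0.0884).

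The desaturases were not called. Scd1 (ENSMUSG00000037071), which makes oleate from stearate, was at 24.4, 40.8 and 31.5 CPM and at 26.99, 41.4 and 30.9 CPM (log2 fold change 0.04, 95% interval -0.097 to 0.178). The values of a litter lay close together, and those of different litters apart. Scd2 (ENSMUSG00000025203), the paralog that prevails in many embryonic tissues, was at 157, 188 and 185 CPM and at 156, 183 and 187 CPM (-0.02, -0.103 to 0.072). Per kilobase of exon, Scd2 was at 32.2 and Scd1 at 6.67 mean CPM per kb. Both held fractional counts in 4 of 6 libraries, so reads may have been divided between these similar genes.

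Fads2, the delta-6 desaturase of polyunsaturated fatty acids, was higher in 3 of 3 litters, from 34.3, 44.3 and 38.3 CPM to 35.9, 50.3 and 47.3 CPM, with an edgeR adjusted p of 0.0671. It passed without litter 1 (adjusted p = 0.0486) and when genes of under 5 mean CPM were left out (adjusted p = 0.0491). Fads1, the delta-5 desaturase beside it in the pathway, had a log2 fold change of 0.03 (95% interval -0.097 to 0.150). Acaca, the carboxylase that makes malonyl-CoA, had 0.07 (-0.080 to 0.225), and Acss2, which makes acetyl-CoA from acetate, had 0.09 (-0.262 to 0.450) at 3.09 to 4.29 CPM.

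Set side by side, the role groups had called genes in unequal numbers. Over the 18 sterol synthesis enzymes 9 rose and none fell, beside 4.71% and 4.83% of all tested genes. The median log2 fold change of the 18 was 0.18. The median log2 fold change without litter 3 was 0.14 for that group. The median log2 ratio of high over low CPM in litters 1, 2 and 3 was 0.13, 0.17 and 0.21 for sterol synthesis, beside 0.023, -0.018 and 0.0049 over all tested genes. For fatty acid synthesis it was 0.065, 0.019 and 0.12, for regulation 0.11, 0.00088 and -0.017, and for transport and efflux -0.055, -0.014 and -0.14. Sterol synthesis therefore lay above the all-gene median in each litter, as did fatty acid synthesis by less, while regulation did so in litters 1 and 2 but not in litter 3. Without litter 1 the median was 0.22 for fatty acid synthesis and -0.0061 for regulation. Differences between role groups were described and not tested, and the genes were grouped with earlier results of these data known.

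**Figure D4:**
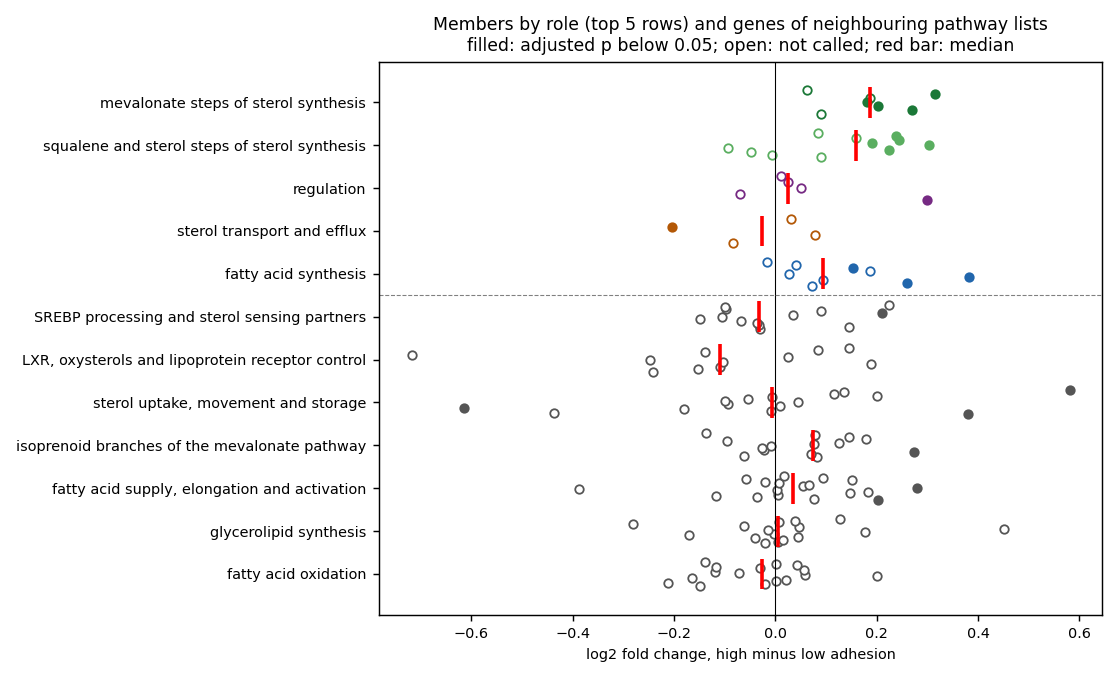
Log2 fold change of high over low adhesion (horizontal axis) of each tested gene in the 5 role groups (above the dashed line) and in 7 lists of neighbouring pathway genes (below it), with filled points called by edgeR and a red bar at each median. The medians of the mevalonate and of the squalene and sterol groups, 0.19 and 0.16, lie to the right of those of the neighbouring lists, which run from -0.11 to 0.074.

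Neighbouring pathways were read from lists of genes with related functions, beside 4.71% of all tested genes called higher and 4.83% called lower. Of 13 tested SREBP processing and sterol sensing genes, 1 rose and none fell (median log2 fold change -0.031). It was Rnf145, an INSIG-binding ubiquitin ligase, at 41.0, 51.9 and 47.0 CPM and then 55.1, 54.3 and 52.5 CPM (0.21 ± 0.064, edgeR adjusted p = 0.0367). Its groups did not overlap, though litter 1 moved most. Of 11 tested genes of liver X receptor and oxysterol biology none was called by edgeR or DESeq2, with 4 at an unadjusted edgeR p below 0.05, against 21.9% of all tested genes (median log2 fold change -0.11). The most abundant of them, Ch25h, which makes 25-hydroxycholesterol, was at 37.8, 61.0 and 27.3 CPM and at 31.5, 57.2 and 25.2 CPM (-0.15, 95% interval -0.286 to -0.018, edgeR adjusted p = 0.157). Scarb1, a receptor for high density lipoprotein, had 0.15 (0.007 to 0.284, edgeR adjusted p = 0.199).

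In the list of sterol uptake, movement and storage, 2 of 15 tested genes rose and 1 fell (median -0.0067). Over all tested genes 4.71% were called higher and 4.83% lower. Lrp1, a large endocytic receptor that takes up apolipoprotein E particles among many ligands, fell from 90.5, 87.0 and 92.3 CPM to 55.8, 63.1 and 57.7 CPM (-0.61 ± 0.058, edgeR adjusted p = 4.63e-08). Its groups lay far apart, and it also passed without the replicate block (adjusted p = 0.0209). Vldlr, the very low density lipoprotein receptor, rose from 21.4, 18.2 and 18.0 CPM to 29.3, 31.6 and 25.6 CPM (0.58 ± 0.080, edgeR adjusted p = 1.38e-05). Gramd1a, which carries plasma membrane cholesterol to the endoplasmic reticulum, rose from 8.97, 12.1 and 9.43 CPM to 12.3, 12.8 and 14.5 CPM (0.38 ± 0.106, edgeR adjusted p = 0.0216). The receptors Lrp1 and Vldlr thus changed in opposite directions, by 1.53-fold and 1.50-fold, beside the 1.30-fold of Elovl6.

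Of 14 isoprenoid branch genes 1 rose and none fell (median 0.074), namely Fntb, the beta subunit of protein farnesyltransferase (0.27 ± 0.088, edgeR adjusted p = 0.0493). Beside this list and the next, 4.71% of all tested genes were called higher and 4.83% lower. Among 18 tested genes of fatty acid supply, elongation and activation 2 rose and none fell (median 0.036). They were Hacd1, a dehydratase of the elongation cycle, which went from 77.2, 91.4 and 88.7 CPM to 93.2, 116 and 104 CPM (0.28 ± 0.050, edgeR adjusted p = 0.000386), and Aacs, which activates acetoacetate for lipid synthesis (0.20 ± 0.062, edgeR adjusted p = 0.0377). No gene of glycerolipid synthesis (16 tested, median 0.0058) or of fatty acid oxidation (16 tested, median -0.025) was called by edgeR or DESeq2, with 3 and 1 at an unadjusted edgeR p below 0.05, both under the 21.9% of all tested genes. Their most abundant members were Gpat4 and Pcyt1a, at 0.05 and 0.04 on the log2 scale, and Etfa and Hadha, at -0.07 and -0.12. Of the 7 called genes of these lists, DESeq2 called Lrp1, Vldlr and Hacd1 and gave Rnf145, Gramd1a, Fntb and Aacs adjusted p-values of 0.389, 0.431, 0.621 and 0.373.

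The litters themselves differed for 17 of the 36 tested genes (edgeR F-test with the substrate in the model), against 17.9% of all tested genes. Insig1 and Scd1 stood out, with litter means of 85.1, 128 and 107 CPM for Insig1 (edgeR adjusted p = 2.7e-07) and 25.7, 41.1 and 31.2 CPM for Scd1 (edgeR adjusted p = 1.56e-06). Of the 17, litter 1 had the lowest mean in 13, among them Fdps, Msmo1, Hmgcs1, Idi1, Elovl6 and Fads2, and litter 2 the highest in 10. Over all genes that differed between litters, litter 1 was lowest in 37.7% and litter 2 highest in 43.3%. Scap, Abca1 and Npc2 ran the other way, with litter 2 lowest. Without litter 1, the litter difference was called for 4 of 36 members, near the 9.92% of all genes tested in that fit. DESeq2 called it for 8, against 5.84% of all tested genes. The highest litter mean over the lowest was 1.50-fold for Insig1, 1.60-fold for Scd1 and 1.79-fold for Abca1, which held only 26 to 51 counts per library. The largest substrate difference, 1.30-fold, is a fitted ratio of 2 groups and not a range over 3 litters, so the sizes are not on a like scale.

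Of the 36, 8 were called for both adhesion and litter, 6 for the substrate alone, 9 for the litter alone and 13 for neither. Over all tested genes these shares were 4.29%, 5.26%, 13.6% and 76.8%, and a relation between the calls was not tested. Those called for the substrate alone were Mvk, Sqle, Lss, Nsdhl, Acly and Fasn. With 1 library per litter and substrate, whether the response to the substrate differs between litters cannot be tested. Litter number and any difference in the day of sorting or culture cannot be told apart.

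**Figure D5:**
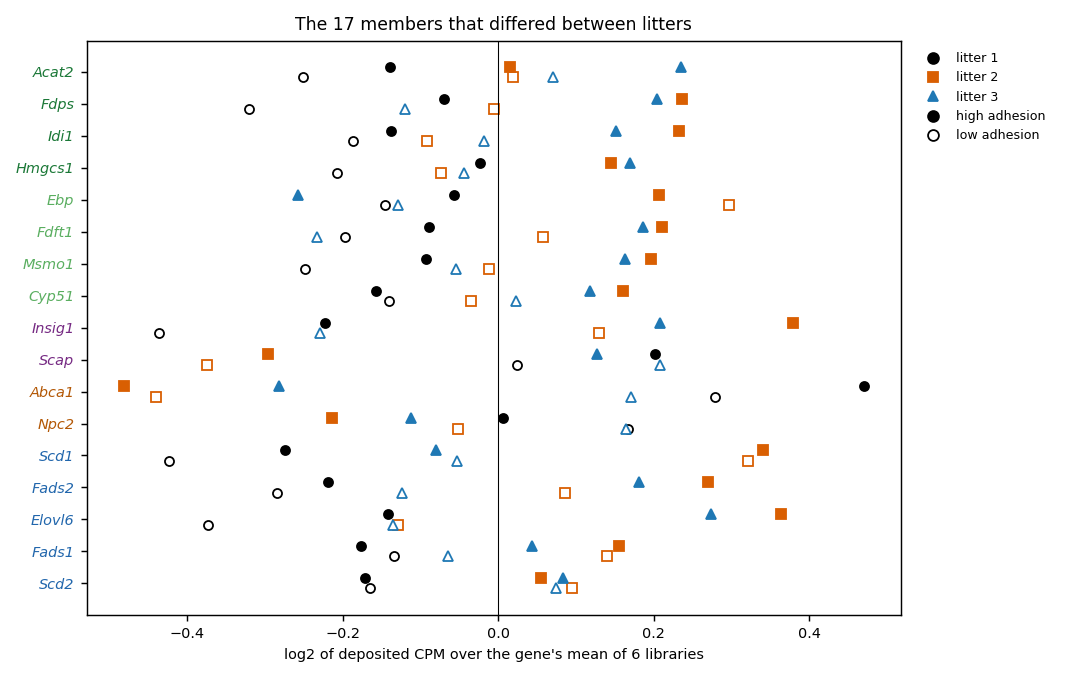
Log2 of deposited CPM over the gene's mean of 6 libraries (horizontal axis) for the 17 genes that differed between litters, with shape and colour for litter, filled points for high and open points for low adhesion. Litter 1 (circles) lies left of 0 on both substrates for genes such as Fdps, Insig1 and Scd1, and right of 0 for Abca1.

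Levels between genes were compared per kilobase of exon, with the exons of all annotated transcripts of a gene merged. The merged length, 10.8 kb for Lss, can exceed that of the transcripts present, which would lower the value of a gene. Msmo1 was highest at 46.7 mean CPM per kb, followed by Fdps at 36.6, Insig1 at 34.5, Npc2 at 33.8, Scd2 at 32.2, Acat2 at 32.1 and Hmgcs1 at 32.0. The lowest were Abcg1 at 0.131, Abca1 at 0.278 and Acss2 at 0.344. Called genes ran from 1.70 for Lss to 46.7 for Msmo1, and thus spanned most of this range. Fractional counts occurred in at least 1 library for 23 of the 37 genes and in none for 14, among which Mvk, Sqle, Msmo1 and Npc2 were called.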

How the data were processed

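Polyadenylated RNA of 6 libraries was measured. The deposited table gives estimated counts per gene, which are partly fractional, and CPM; the submitters' processing notes name the build GRCm39, the counter featureCounts of Subread 2.1.1, the aligner STAR 2.7.11, the trimmer fastp 0.24.0, and FastQC 0.12.1, MultiQC 1.32 and SAMtools 1.22.1. The sources used here do not give the annotation release, the strand setting or the treatment of reads that map to several places. The deposited CPM equal the deposited counts over their library total and are the CPM printed here.

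Counts were rounded to whole numbers and fitted with edgeR 4.0.16 in R 4.3.3 (filterByExpr, TMM factors of 0.988 to 1.011, robust quasi-likelihood F-test, litter as a block, Benjamini-Hochberg over all 14834 tested genes, threshold 0.05). A standard error is the log2 fold change over the square root of F, and 95% intervals come from it. DESeq2 1.42.0, limma-voom (limma 3.58.1), no block, other filters, unrounded counts and leaving out each litter were alternatives. A count was taken as whole within 1e-06. The script was tested on simulated data, with a pass mark set on changes larger than those of the called members. Depth was 12596249 to 13508257 counts, and counts cover sampling error only.

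The litter numbers pair the samples, since the labels give each litter 1 library on each substrate. Deviations from the group means correlated within litters at 0.600, 0.607 and 0.388. Across litters the correlations were below 0, which subtracting the mean of 3 libraries largely builds in, so they add nothing on the pairing.

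The members, role groups, pathway lists and marker lists were chosen with earlier results of these data known. In each role group the called members of lowest adjusted p, at most 4, were named with all their values, and a set of pathway genes was always named; each pathway list gave its called genes of lowest p, at most 3, or the 2 of highest mean CPM. Exon lengths and overlaps come from GENCODE M21, on GRCm38, matched by gene, with the exons of all its transcripts merged. Promoters come from RefSeq on GRCm38.p6.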

Additional observations from a re-analysis of the deposited data

How the results depend on the processing

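With the replicate block, 1416 genes were called between substrates; 36 were called without it and 407 in DESeq2, and leaving out each litter gave 908 to 1553. Members called higher numbered 13, and 0 without the block, 6 in DESeq2 and 7 to 12 with a litter left out, 7 being the value without litter 3. The 1 member called lower was 0 without the block and 0 to 1 with a litter left out, Npc2 being lost without litter 3. The counts of litter differences moved too: 866 genes and 8 members in DESeq2, and 1384 to 2687 genes and 4 to 19 members with a litter left out, against 2655 and 17. The median log2 fold change ran from 0.14 to 0.21 for sterol synthesis, from -0.061 to 0.10 for transport and efflux and from 0.078 to 0.22 for fatty acid synthesis when a litter was left out, with Abcg1 entering where it passed the filter. None of the 14 called members changed sign in these 10 alternatives. Size factors of DESeq2 in edgeR, unrounded counts and no filter changed no member's call, limma-voom lost Fasn alone, and a minimum of 5 mean CPM added Fads2. With 3 pairs, a member whose interval includes 0 may still have changed within that interval.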
